A study of Mus musculus with 2 samples.

Results

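The interleukin-1 family was examined through 10 genes, chosen by name out of the 23477 gene names in the deposited table. They are the ligands Il1a, Il1b, Il18 and Il33, the receptor antagonist Il1rn, the decoy receptor Il1r2, and the receptor chains Il1r1, Il1rap, Il1rl1 and Il18r1. All 10 were found, as 20 transcript rows, and the row with the most reads was kept for each gene. The data hold 1 group of 2 samples of colonic eosinophils, taken by flow sorting after enzymatic digestion of the colons of naive wild-type C57BL6 mice; the labels do not state the gate or how many mice were used. Each sample was made into 3 technical libraries by CEL-Seq, an RNA-seq method whose tags lie close to the 3′ ends of messages. For each transcript there is 1 read total and 1 RPKM, which is a level corrected for transcript length in kilobases and for depth in steps of 1000000 reads. Both are means over the 6 libraries, so no value per sample, SD or test between samples is given. No condition is compared. Because tags lie near the 3′ end, reads need not rise with transcript length, and RPKM can place long transcripts too low beside short ones. An order of genes by RPKM is therefore to be read together with their reads. Ranges in brackets beside levels are exact Poisson intervals at 95% for the reads summed over the libraries. Those beside ratios are exact binomial intervals at 95% from the reads of both sides, scaled to the ratio. They cover counting error only and are approximate on the RPKM scale because library depths differed. The labels name no molecular identifiers, so amplified copies of 1 molecule may have entered as separate reads. How such copies were counted is not known here.

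Interleukin-1 alpha and beta bind the same receptor chain, Il1r1, which signals once the accessory protein Il1rap has joined it. The antagonist encoded by Il1rn occupies Il1r1 without recruiting the accessory protein, and Il1r2 binds the ligands but lacks the signalling domain. Interleukin-33 binds Il1rl1, also called ST2, which uses the same accessory protein and is a known receptor of eosinophils, mast cells and type 2 lymphoid cells. Interleukin-18 binds Il18r1 together with its own accessory chain Il18rap. Interleukin-1 beta and interleukin-18 are made as inactive precursors that caspase-1 cleaves.

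The transcripts of the agonists carry AU-rich stretches in their 3′ untranslated regions, a kind of element that RNA-binding proteins such as the product of Zfp36 use to shorten the life of cytokine messages. The densest 30 bases of each are shown because both messages were among the most abundant in these cells. They were read from GENCODE M21 transcripts (GRCm38, the assembly also called mm10), 5′ to 3′ on the transcript strand, and capitals mark the motif TATTTAT. The Il1b stretch lies at chr2:129364798-129364827 and the Il1a stretch at chr2:129300098-129300127, both on the minus strand.
Il1b: ccTATTTATTTATgTATTTATtgattggtt
Il1a: gTATTTATaaataTATTTATgataattata
The Il1b stretch holds 3 matches, of which the first and the next overlap, and the Il1a stretch holds 2. On the transcript strand, 2.62% of 19369 genes with a 3′ untranslated region had at least 2 matches within 30 bases, and 0.583% had at least 3. The longest such region of each gene was used. Among genes with an untranslated region of like length, 1.39% of those compared with Il1b and 2.60% of those compared with Il1a had at least 2 such matches. The share with 3 was not computed at like length. The 3′ untranslated regions of Il1rn, Il1r2, Il18, Il18r1 and Il33 held no match, and those of Il1rap, Il1rl1 and Il1r1 held 3, 2 and 2 matches that were farther apart. Of all 19369 genes, 25.5% held a match. For regions as short as those of Il1r2 (24 bases) and Il18 (123 bases) the shares were 1.14% and 3.11%. For regions as long as those of Il1rap, Il1rl1 and Il1r1 they were 48.2%, 54.2% and 59.0%. A match describes the letters only.

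All 10 genes were above 0, against 69% of all 23477 genes, and 7 of the 10 were at an RPKM of 1 or more, against 31% of all genes. Their median RPKM was 40.4, against 0.186 over all genes. The levels of the kept rows fell into 3 ranges. Il1b, Il1a, Il1rn, Il1r2 and Il1rl1 stood between 75.6 and 263 RPKM, Il18 and Il1rap at 5.09 and 1.02, and the kept rows of Il1r1, Il18r1 and Il33 at 0.0510, 0.0428 and 0.0208. The counting intervals of the kept rows of the 5 genes at the top did not overlap. Those of Il1r2 (103.6 to 111.6) and Il1rn (112 to 118) lay closest to each other. Reads of Il1rn are divided among 3 rows, and summed over them it stood at 308 (303 to 314), the highest of the 10. The intervals of Il1r1, Il18r1 and Il33 overlapped, so these 3 have no order beyond counting error.

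**Figure D1:**
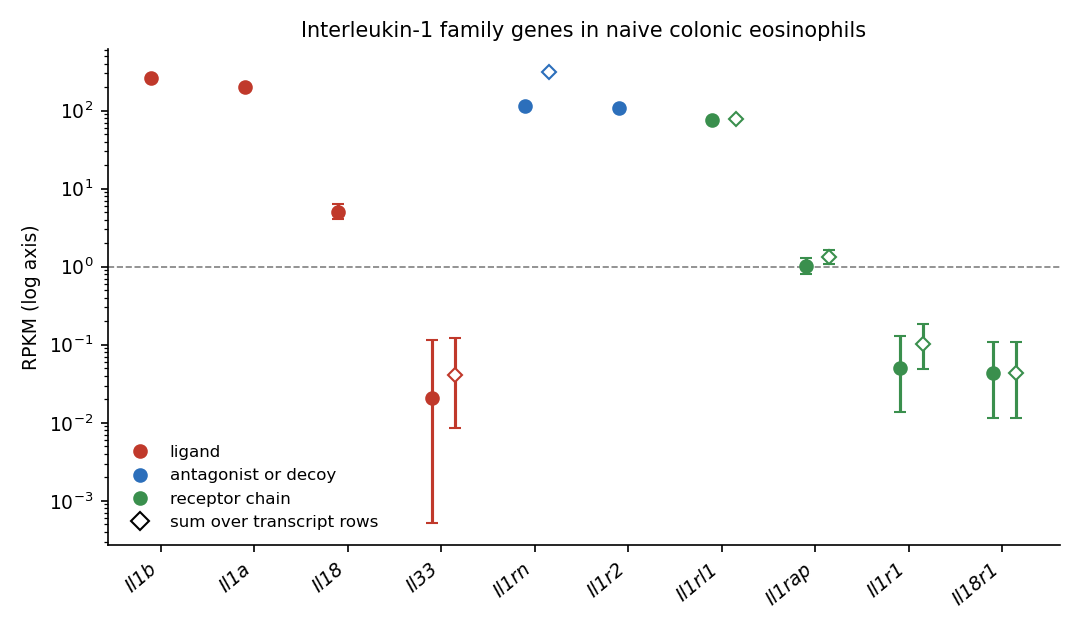
RPKM of the 10 genes on a log axis. Filled points are the transcript row with the most reads, open diamonds the sum over all rows of genes with more than 1 row, bars the exact 95% Poisson intervals of the reads, and the dashed line an RPKM of 1. The agonists, the antagonist, the decoy and Il1rl1 sit near 100, while Il1r1, Il18r1 and Il33 sit near or below 0.1.

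Among the ligands, Il1b, the agonist released after caspase-1 cleavage, had 5342 reads and 263 RPKM (256 to 270.3). It ranked 108th of all genes, and 99.3% of the 16209 genes above 0 had a lower RPKM. Il1a, the agonist that is active without cleavage and often stays bound to the cell, had 6258 reads and 200.1 RPKM (195 to 205), at rank 144. Per length, Il1b stood 1.32 times as high as Il1a (1.27 to 1.36), whereas in reads alone it stood at 0.854 of Il1a (0.823 to 0.886), so their order depends on dividing by transcript length. An antisense transcript, Gm14023, overlaps 222 exon bases of Il1a on the opposite strand and was listed at 29 mean reads and 5.89 RPKM; whether the authors' counting used strand is not known here, so reads in the shared bases cannot be told apart.

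Il18 had 83 reads and 5.09 RPKM (4.05 to 6.31), higher than 79.8% of genes above 0. Il1b stood 51.7 times as high (41.6 to 65.0). Il33, which in the gut is best known from stromal and epithelial cells, had 3 reads in all. The values of its 2 transcript rows, at 0.0208 and 0.0206 RPKM, show that those 3 reads were divided between the rows and that all lay in the deepest of the 6 libraries. Summed over rows this was 0.0413 RPKM (0.00853 to 0.121), which lies at the 3-read limit of 0.371 reads per 1000000 reads on genes, so Il33 was not detectable above that limit at this depth. The interleukin-36 genes and Il1f10, a list of 5 further genes of the ligand fold, were all below an RPKM of 1: Il36b had 4 reads (0.399 RPKM), Il36rn and Il36g had 1 read each, and Il36a and Il1f10 were listed at 0.

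The antagonist Il1rn had 3 transcript rows. The kept row, NM_001039701, had 5361 reads and 115 RPKM (112 to 118), NM_001159562 had 4010 reads and 115.0 RPKM, and NM_031167, the secreted form, had 2788 reads and 77.9 RPKM. The rows begin at different start sites and end at the same base, so a tag near the 3′ end does not tell them apart and their shares are an estimate of the authors' processing. Summed over rows, Il1rn had 12159 reads and 308 RPKM (303 to 314), above Il1b and Il1a. By the kept row alone, Il1rn stood at 0.249 of Il1a and Il1b together (0.241 to 0.257). By the sum of rows it stood at 0.665 (0.649 to 0.683), and in reads of the gene at 1.05 (1.02 to 1.08). The antagonist thus lay below the summed agonists per length on either choice of rows, and slightly above them in reads of the gene. In the GENCODE transcript that reaches this shared end, 0% of the 35-base words of its final 500 bases occur in transcripts of other genes; the GENCODE transcripts matched to the other Il1rn rows stop short of it and do not describe it. The share was 2.58% for the kept row of Il18r1 and 0% for those of Il1a, Il1b, Il1r2, Il1rap, Il1rl1, Il18 and Il33. For Il1r1 it was also 0%, but the GENCODE transcript of its kept row ends beyond that row.

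The decoy receptor Il1r2 had 2784 reads and 107.5 RPKM (103.6 to 111.6), higher than 98.3% of genes above 0. The signalling receptor for the same ligands, Il1r1, was listed with 4 reads in each of 2 rows, at 0.0510 and 0.0503 RPKM. Those values correspond to 10 reads shared between the rows, 3 in the library of 2100580 reads and 7 in the deepest library, with none in the other 4. Summed over rows, Il1r1 stood at 0.101 RPKM (0.0486 to 0.186). The decoy exceeded the signalling receptor 2108-fold by the kept rows (902 to 6496), 1061-fold by the sum of rows (576 to 2216) and 278.4-fold in reads (151 to 581). The range by kept rows counts 5 reads for Il1r1, the part of its 10 shared reads that falls to that row. The decoy was higher by each of these 3 measures, and the size depends on the row and scale used. The GENCODE transcript matched to the kept Il1r1 row ends 1080 bases beyond it, and that of its other row 24 bases beyond. Tags near the farther end would lie outside both rows. Whether such tags were missed, which would make the Il1r1 level too low and these ratios too high, was not tested.

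Il1rl1, the receptor of interleukin-33, had 6390 reads in its membrane form and 75.6 RPKM (73.8 to 77.5), higher than 97.6% of genes above 0. By kept rows, in reads per 1000000 reads on genes and without length, it was the highest of the 10 at 789. Il1a followed at 773, Il1rn at 662 and Il1b at 660. Over all rows, Il1rn had 12159 reads and Il1rl1 6510, so by gene Il1rn was the highest of the 10. The Il1rl1 transcript is 5071 bases long, against 1327 for Il1b. Il1rap, the accessory chain for both Il1rl1 and Il1r1, had 75 reads and 1.02 RPKM (0.806 to 1.28), near the RPKM of 1 used as the detection minimum. Exons of Gm20319, which was not analysed here, overlap 353 of its exon bases on the opposite strand. Il1rl1 stood 73.8 times as high as Il1rap (58.8 to 94.0) by kept rows and 58.2 times (47.2 to 72.7) by the sum of rows. Il18r1, the binding chain for interleukin-18, had 4 reads, 1 in each of 2 libraries and 2 in the deepest, and 0.0428 RPKM (0.0117 to 0.110), with its other 2 rows at 0. The receptors and inhibitors of the family outside the 10 were all below an RPKM of 1: the regulator Sigirr had 0.443, the interleukin-18 binding protein Il18bp 0.266, the accessory chain Il18rap 0.151 and the interleukin-36 receptor Il1rl2 0.0713 RPKM, while Il1rapl2 was listed at 0.

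Il1rl1 and Il1rap each encode a membrane form and a soluble form that lacks the transmembrane part, and these end at different 3′ ends, which a 3′ tag can tell apart. A window of 30 bases at or just before each end is shown, from GENCODE M21 (GRCm38), all on the plus strand, with the polyadenylation signal AATAAA, or its variant ATTAAA, in capitals. They lie at chr1:40465386-40465415 and chr1:40448114-40448143 for Il1rl1 and at chr16:26717714-26717743 and chr16:26702326-26702355 for Il1rap, membrane form first.
Il1rl1 membrane: tctagcttATTAAAaaaaaaaatctagaaa
Il1rl1 soluble: attaAATAAAattcgtgtctattgttcttg
Il1rap membrane: ttgcAATAAAccgtttattttcacctttga
Il1rap soluble: attcAATAAAcgctagctcttatttctcca
The soluble form of Il1rl1, the decoy for interleukin-33, had 120 reads and 2.22 RPKM (1.84 to 2.65), 1.84% of the reads of both forms (1.53% to 2.20%, exact Clopper-Pearson interval). The membrane form was 34.1 times as high per length and 53.25 times in reads. The soluble form of Il1rap had 11 reads and 0.287 RPKM, 12.8% of the reads of both forms (6.56% to 21.7%). The membrane form was 3.56 times as high per length (1.88 to 7.44). Of the other Il1rap rows, NM_001159317 had 2 reads and NM_001159318 had none. The GENCODE end of the soluble Il1rl1 transcript lies short of the end of its row, and the signals were searched on the transcript strand in the last 50 bases of the GENCODE transcripts only, where 76.7% of the 19369 genes hold at least 1 of these motifs.

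**Figure D2:**
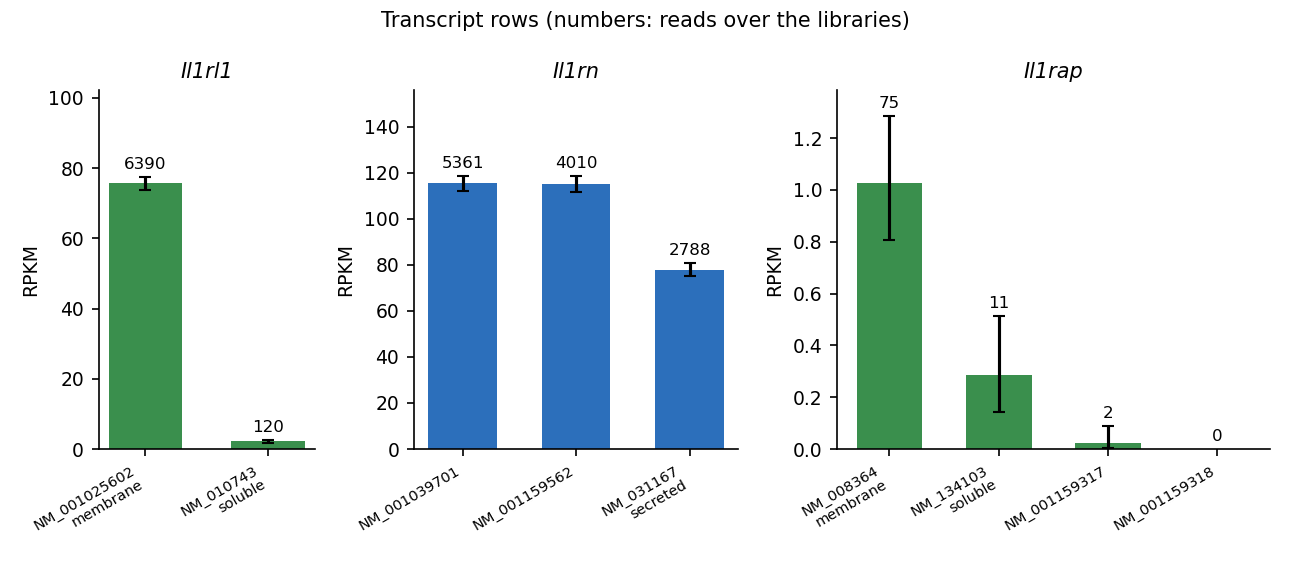
RPKM of each transcript row of Il1rl1, Il1rn and Il1rap, with exact 95% Poisson intervals as bars and the reads over the 6 libraries printed above. The membrane form carries most of Il1rl1 and of Il1rap, while the Il1rn rows, which share a 3′ end, stand at 115, 115.0 and 77.9.

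Il1r2, Il1r1, Il1rl2, Il1rl1, Il18r1 and Il18rap lie in 1 run of 464.53 kb on chromosome 1 (40084768 to 40549297, mm10, plus strand), with no other gene of the table in the gaps between them. Genes with high levels were separated by genes with very low ones. Il1r2 at 107.5 RPKM was followed by Il1r1 and Il1rl2 at 0.101 and 0.0713, then by Il1rl1 at 77.9 summed over rows, and Il18r1 at 0.0428 begins 137 bases after the end of Il1rl1. On chromosome 2, Il1rn closes a run of 198.32 kb (24153172 to 24351491, plus strand) whose other 5 genes, of the interleukin-36 group and Il1f10, ranged up to 0.399 RPKM, against 308 for Il1rn. Il1a and Il1b lie elsewhere on chromosome 2 (129299610 to 129371120, minus strand), 54607 bases apart, and both stood at 200.1 RPKM or higher. Il18 lies on chromosome 9 (50565368 to 50581837), Il33 on chromosome 19 (29925114 to 29960715) and Il1rap on chromosome 16 (26581705 to 26717748 for the membrane form), all on the plus strand.

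**Figure D3:**
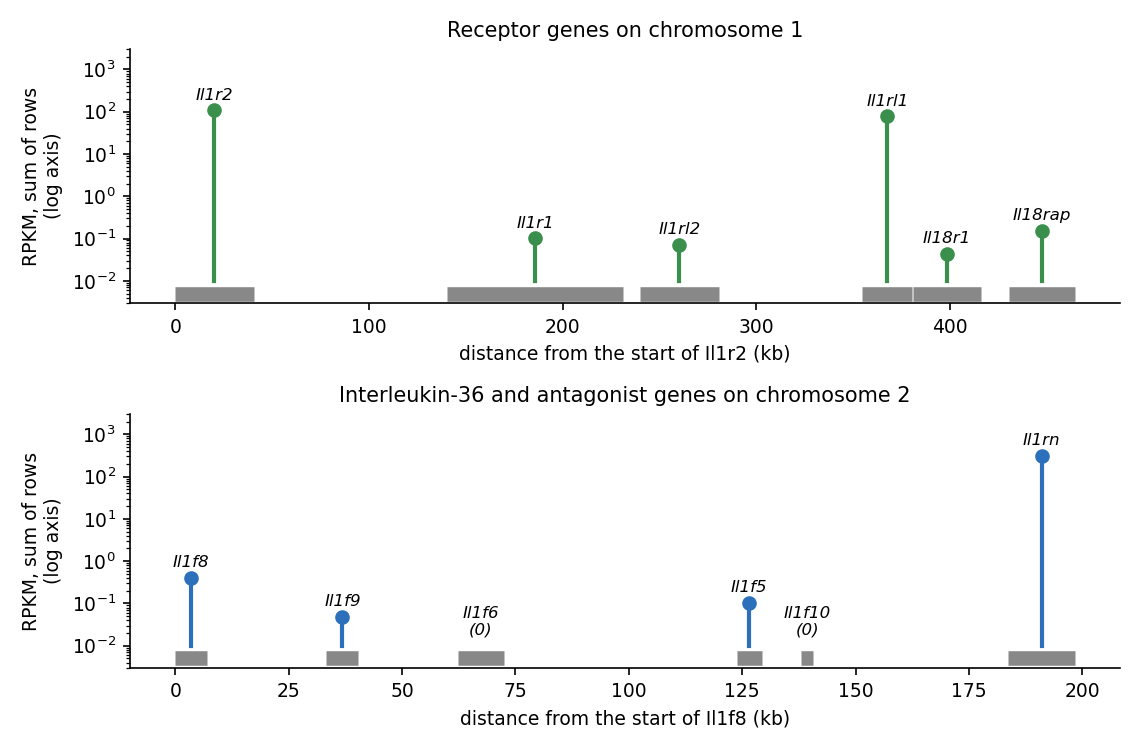
RPKM summed over transcript rows (log axis) against distance in kb from the start of the first gene, for the receptor genes on chromosome 1 and the interleukin-36 and antagonist genes on chromosome 2 (grey boxes span the rows of each gene). Il1r2 and Il1rl1 stand near 100 beside neighbours below 1, and Il1rn at 308 beside neighbours below 1, with Il1f6 (Il36a) and Il1f10 listed at 0.

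Genes acting around the family were set beside it from lists, by the row with the most reads of each gene. Over all genes, 31% were at an RPKM of 1 or more, so a count near that share does not set a list apart. Of 12 inflammasome and ligand-processing genes, 8 were at an RPKM of 1 or more, with a median of 3.46. The highest were the cell death caspase Casp8 at 21.4, Casp1, which cleaves the interleukin-1 beta and interleukin-18 precursors, at 17.8, Gsdmd, whose pore lets the cytokines out, at 17.6, and the inflammatory caspase Casp4 at 17.1 RPKM. Chosen after their values were seen, the adaptor Pycard had 5.71 RPKM and the sensor Nlrp3 0.910 (0.709 to 1.15). Of 18 receptor signalling genes, 14 were at 1 or more, with a median of 4.71. Map3k3, a kinase upstream of NF-kB, had 44.4, Tab2, which links TRAF6 to its kinase, 31.0, and the receptor-associated kinases Irak2 and Irak3, the last a brake on the pathway, 11.1 and 10.8 RPKM. Myd88, the adaptor shared by these receptors, had 6.87 RPKM and was also named after its value was seen. All 5 feedback genes were at 1 or more, with a median of 121. Nfkbia, the inhibitor that retains NF-kB in the cytoplasm, had 3373, Zfp36, a protein that binds AU-rich elements, 1471, Nfkbiz 121 and Zc3h12a, an RNase that degrades cytokine messages, 105.7 RPKM.

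**Figure D4:**
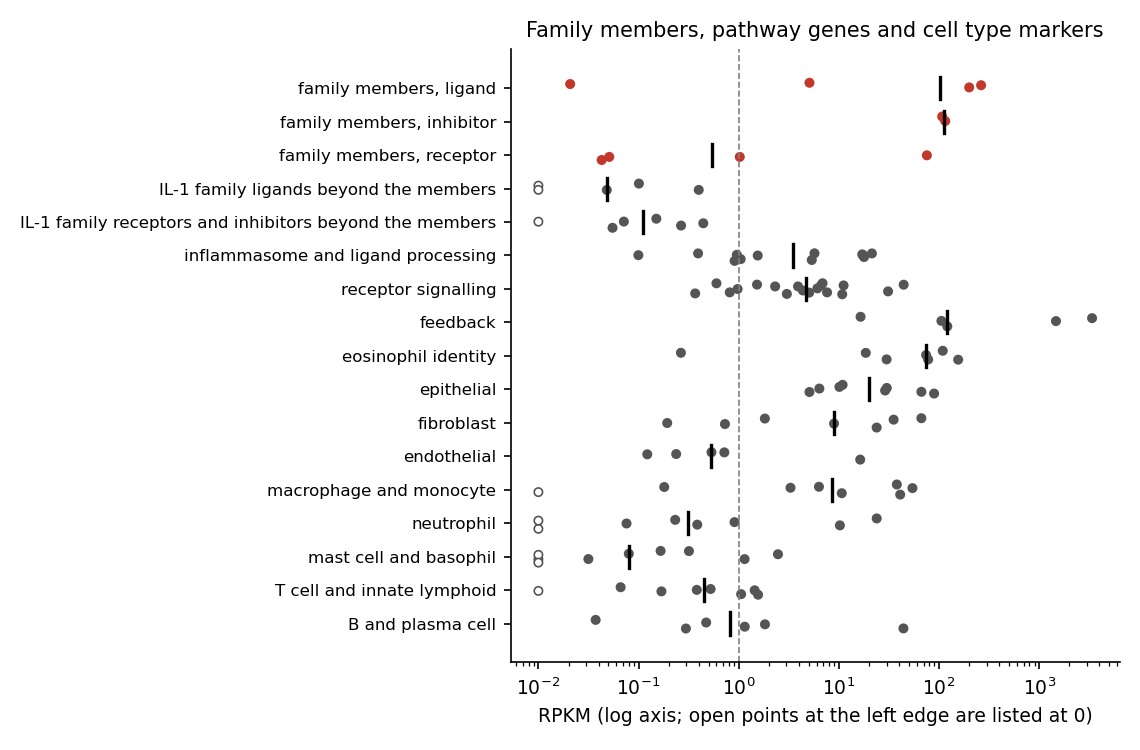
RPKM (log axis) of the family members, of pathway genes and of cell type markers, 1 point per gene, with the median of each list as a black bar, an RPKM of 1 as a dashed line and genes listed at 0 as open points at the left edge. The family members, in red, run from 0.0208 to 263, the feedback genes have a median of 121, and the mast cell and basophil markers one of 0.0800. Each point is the row with the most reads.

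The sorted cells carried eosinophil markers and also markers of other colon cells, again given by the row with the most reads. Over all genes, 31% were at an RPKM of 1 or more. A count near that share therefore does not mark a cell type as present or absent. Of 7 eosinophil markers, 6 were at an RPKM of 1 or more, with a median of 74.3. The chemokine receptor Ccr3 had 155, Adgre1 109, Siglecf 77.9 and the granule protein Prg2 74.3 RPKM, while Epx, the eosinophil peroxidase, named after its value was seen, had 0.265. Per length, Il1rl1 at 75.6 RPKM and Siglecf had overlapping counting intervals, whereas without length Il1rl1 had 789 and Siglecf 356 reads per 1000000 reads on genes. All 8 epithelial markers were at 1 or more, summing to 247.5 RPKM by kept rows. Epcam had 89.3, Krt19 66.7, Lgals4 30.1 and Car1 29.0, or 57.6 for Car1 summed over rows. Il18, a product of gut epithelium as well as of immune cells, stood at 5.09 beside these; in a bulk sample fewer cells of a type and less RNA per cell cannot be told apart, and the part of epithelial RNA in the Il18 value was not tested. Of 8 macrophage and monocyte markers, 6 were at 1 or more, summing to 153.6 RPKM, with Apoe at 54.3, Csf1r at 41.0, C1qb at 37.9 and C1qc at 10.7, and Mertk at 0. Macrophages make Il1b, Il1a and Il1rn, and the part of macrophage RNA in those values was not tested. Of 8 neutrophil markers, 2 were at 1 or more, S100a9 at 23.9 and S100a8 at 10.2, with Elane and Mpo at 0 and the list summing to 35.7. Neutrophils make Il1b and Il1r2, which stood at 263 and 107.5 RPKM, and their part in those values was not tested.

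Of 9 mast cell and basophil markers, 2 were at 1 or more, against 31% of all genes. These were Mcpt1 at 2.47 and Mcpt2 at 1.14, and the list summed to 4.21 RPKM. Cpa3 had 8 reads and Mcpt8 2, and Fcer1a, Ms4a2 and Tpsb2 were listed at 0. Mast cells and basophils also carry Il1rl1, which stood at 75.6 RPKM, and their part in that value was not tested. Of 8 T cell and innate lymphoid markers, 3 were at 1 or more, with Cd4 at 1.56, and the list summed to 5.20, with Rora at 0. Fibroblast markers, of which 5 of 7 were at 1 or more, summed to 137 RPKM, with Col3a1 at 66.7, Col1a2 at 35.2, Dcn at 23.8 and Col1a1 at 8.95, while Il33 and Il1r1, both known in stromal cells, had 3 and 10 reads. Summed over rows, Dcn stood at 46.5 and Pdgfra, below 1 by its kept row and named after its value was seen, at 1.46. Of the endothelial markers, 1 of 5 was at 1 or more, Pecam1 at 16.3, and the list summed to 17.9. Of the B and plasma cell markers, 3 of 6 were, led by Jchain at 44.1, and the list summed to 47.9.

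The libraries held 1892486, 2070937, 2100580, 2396564, 4343107 and 4752357 reads, as found from transcripts with a single read, and they could not be assigned to the 2 samples. The 2 deepest held 51.8% of all reads. For genes with many reads, the read total and RPKM together give a read-weighted depth, the harmonic mean over reads of the depth of the library each read lies in. A gene at an equal level in every library would have 2926005 reads. Il1b had 2550126, and 1.89% of the 899 genes measured in this way lay below it. Il1a had 2641049, with 6.23% of genes below it, and Il1rl1 2780360, with 22.2% below. Il1rn had 2684601 over all its rows, with 10.6% below, but its rows differed: the kept row NM_001039701 lay at 3124939, above the equal-level value, and NM_001159562 and NM_031167 at 2412984 and 2420624, below it. The GENCODE transcripts of NM_001039701 and NM_001159562 end short of their rows by more than the 100 bases allowed for the 899 genes. The lengths of these rows are therefore uncertain, and so are their values and the value over all rows. No direction is drawn for Il1rn. Il1r2 lay on the other side, at 3210914 with 70.7% of genes below it. Whatever the split among the libraries, Il1b stood in the 2 deepest libraries at between 0.129 and 0.783 of its level in the other 4, and Il1a at between 0.214 and 0.939. For Il1r2 the limits were 0.974 and 2.49, for Il1rn over all rows 0.257 and 1.02 and for Il1rl1 0.359 and 1.21, so a difference in either direction was possible for these 3. These limits leave out counting error and error in transcript length. The 5 eosinophil markers with a value lay on both sides of the equal-level value, with Adgre1 at 2638306, Il5ra at 2815074 and Ccr3 at 2818255 below it and Prg2 at 3031651 and Gata1 at 3260686 above it. The macrophage markers C1qb and Csf1r lay at 2927438 and 2986716, the epithelial markers Epcam and Lgals4 at 3050655 and 3257205, and the fibroblast marker Col3a1 at 3088422. The feedback genes Nfkbia and Zc3h12a lay far apart, at 2658895 and 3634381. Il5ra and Gata1 were named here after their values were seen. Whether the deeper libraries are of 1 sample or of both cannot be told apart here, and no cause of these differences was tested.

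**Figure D5:**
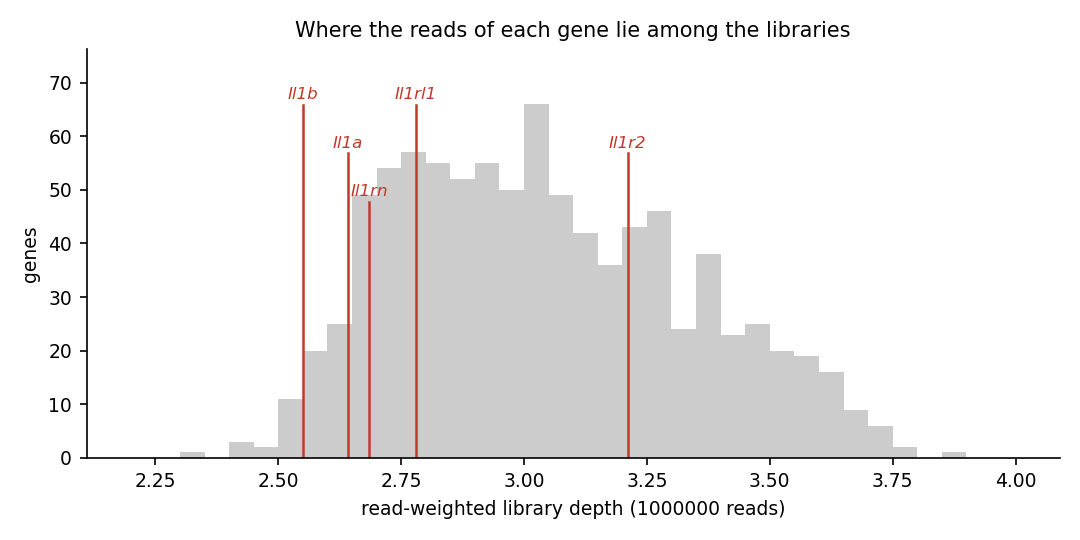
Number of genes (grey bars) by read-weighted library depth, in units of 1000000 reads, for 899 genes with 1 row and at least 600 reads; red lines mark the family genes with at least 600 reads. Il1b, Il1a, Il1rl1 and Il1rn summed over its rows lie below the median gene at 3011083 and Il1r2 above it. The kept row of Il1rn alone would lie above it, at 3124939, but the Il1rn values rest on uncertain row lengths.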

How the data were processed

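Per the labels' protocols, RNA of 2 samples of sorted colonic eosinophils was extracted with Trizol and made into CEL-Seq libraries. Per the submitters' processing notes, STAR 2.4.2a and DESeq (no version) were used on mm10; which read counter was used is not given in the sources used here. In the table deposited by the authors, 31295 RefSeq rows have a read total and an RPKM, both averaged over 6 libraries. Read totals times 6 were whole within 0.0001 for 100% of rows and sum to 8096526 reads, 46.1% of the recovered depth. The RPKM values were computed by the authors per kilobase of transcript.

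Rows of 1 gene share reads in fractions: of 50 rows of 2-row genes that list 1 read in each row, 42% imply 1.5 reads by RPKM, against 0% of 831 rows of 1-row genes. A further 44% of the 50 imply 1 read, and the rest neither value. Levels of the members were therefore also summed over rows, an alternative chosen after seeing the data. Genes of the lists were ranked, counted and summed by the row with the most reads. Depths came from 371 single-read transcripts. Reads per library of low genes came from the only whole-number solution within a tolerance set mainly by the rounding of the RPKM values. Transcript lengths came from GENCODE M21. The recovery methods were tested on simulated data in which each gene had 1 row. Sharing of reads between rows, on which the recovered reads of Il33 and Il1r1 rest, was not simulated. An equal split between rows was assumed for both genes, whose rows list equal reads. Rows of a gene need not share equally, since those of Il1rn had 5361, 4010 and 2788 reads.

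The members and the gene lists were chosen with earlier results of these data known. Named genes are all members, the 4 highest of each list and those listed at 0; others are said to be named after their values were seen. Trac was not matched. Reads per 1000000 reads on genes, rescaled RPKM, other detection minimums and backgrounds were alternatives. With 1 group there was no test. Intervals were computed with scipy 1.17.1, tables with pandas 2.3.3 and numpy 2.4.6, and figures with matplotlib 3.10.9, all in Python 3.11.15.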

Additional observations from a re-analysis of the deposited data

How the results depend on the processing

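In reads per 1000000 reads on genes, in place of RPKM, the levels of the kept rows were 773 for Il1a, 660 for Il1b, 662 for Il1rn and 344 for Il1r2. They were 789 for Il1rl1, 10.3 for Il18, 9.26 for Il1rap, 0.494 for Il1r1, 0.494 for Il18r1 and 0.124 for Il33. Rescaled to a sum of 1000000, the RPKM values were 842 for Il1a, 1107 for Il1b, 485 for Il1rn, 453 for Il1r2, 318 for Il1rl1, 21.4 for Il18, 4.31 for Il1rap, 0.215 for Il1r1 and 0.180 for Il18r1, and Il33 moved by less than its counting interval. The row with the highest RPKM gave the same levels for all 10. Summing rows, chosen after seeing the data, moved Il1rn to 308, Il1rap to 1.34 and Il1rl1 to 77.9, and put Il1rn above Il1b. With the background limited to genes whose RPKM was at least 1, the shares of genes below were 98.0% for Il1a, 98.5% for Il1b, 96.5% for Il1rn, 96.2% for Il1r2, 94.6% for Il1rl1, 54.9% for Il18, 0.824% for Il1rap, and 0% for Il1r1, Il18r1 and Il33. The ratio of Il1rn to Il1a and Il1b was 0.462 in reads of the kept row, 0.665 in RPKM summed over rows and 1.05 in reads summed over rows. The ratio of Il1r2 to Il1r1 was 696 in listed reads and 278.4 in all reads of the gene. The count of members detected was 10 at any RPKM above 0, 6 when an RPKM of 5 was required, and 7 at 1 read per 1000000 reads on genes and by the sum of rows, against 7 in the report. Leaving out a replicate could not be run, since the table analysed here holds 1 mean per row. No paired analysis was possible because there is 1 group and no value per sample. Depth limits Il33, Il1r1 and Il18r1, which rest on 3, 10 and 4 reads.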
